A study of Mus musculus with 6 samples.

Results

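The 9 genes described here set which transmitter a neuron makes and packs into vesicles: Gad1 and Gad2 for GABA, Slc32a1 for GABA and glycine, Slc6a5 for glycine, Slc17a6, Slc17a7 and Slc17a8 for glutamate, Th for catecholamines and Tph2 for serotonin. They were chosen by name, and every probe set that the platform annotation gave to exactly 1 of these symbols was taken, 15 of 45101 on the array. These read 8 of the 9 genes, out of 18193 genes read by such probe sets in all, since Slc17a8 had 0 of them and was not analysed here. The samples were brainstem motor neurons of mice, measured on 6 Affymetrix arrays, 3 of SOD1 and 3 of wild type (WT) genotype. Sod1 encodes copper-zinc superoxide dismutase, and mice with mutant forms of it are widely used models of motor neuron disease. The sources used here do not give the form of that gene, the age or the strain of the mice, the way the cells were collected or whether each sample came from 1 animal, and name no other treatment for either group. The p-values therefore cover only the variation among these 6 samples, which may in part be technical.

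Motor neurons of the brainstem use acetylcholine and receive GABA, glycine, glutamate, noradrenaline and serotonin from other neurons. Gad1 and Gad2 make GABA from glutamate, Slc32a1 loads GABA and glycine into vesicles, and Slc6a5 takes glycine up into the terminal. The Slc17a6, Slc17a7 and Slc17a8 proteins load glutamate into vesicles, Th carries out the rate-limiting step of catecholamine synthesis, and Tph2 that of serotonin synthesis in the brain. Transcripts of these genes lie mostly in cell bodies, so in a motor neuron sample their level bears on neighbouring neurons taken along, on incoming fibres where these hold the transcript, and on any expression in the motor neurons. In bulk RNA, fewer cells of a type and less RNA per cell cannot be told apart.

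The stretches before the start site are shown for 4 of the genes, Gad1 and Slc32a1 because both led on the same array, Tph2 because it was above background on all 6, and Th because it holds a well-known cAMP response element. Each is the 250 bases before the start that RefSeq gives on GRCm38.p6, 5′ to 3′ on the gene's strand. Capitals mark the E-box CANNTG, the TATA motif TATAAA and the cAMP response element TGACGTCA, searched on both strands. Gad1 lies on the plus strand at chr2:70561879-70562128 and Slc32a1 on the plus strand at chr2:158610508-158610757. Th lies on the minus strand at chr7:142899996-142900245 and Tph2 on the minus strand at chr10:115185023-115185272.
Gad1: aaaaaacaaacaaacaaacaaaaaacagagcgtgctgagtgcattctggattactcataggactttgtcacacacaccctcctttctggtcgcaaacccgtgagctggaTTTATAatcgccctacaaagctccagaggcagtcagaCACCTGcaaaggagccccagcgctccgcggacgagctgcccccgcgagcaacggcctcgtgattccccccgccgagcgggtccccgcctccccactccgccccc
Slc32a1: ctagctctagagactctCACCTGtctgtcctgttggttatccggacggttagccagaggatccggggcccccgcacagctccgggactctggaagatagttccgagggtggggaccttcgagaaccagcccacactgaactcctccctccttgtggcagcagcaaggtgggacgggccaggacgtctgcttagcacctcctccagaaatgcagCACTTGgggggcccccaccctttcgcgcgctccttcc
Th: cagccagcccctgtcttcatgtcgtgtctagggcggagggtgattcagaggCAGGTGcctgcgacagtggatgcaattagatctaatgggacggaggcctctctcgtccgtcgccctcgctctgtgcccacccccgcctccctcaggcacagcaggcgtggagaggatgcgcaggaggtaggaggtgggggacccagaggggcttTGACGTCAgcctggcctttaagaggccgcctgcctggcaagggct
Tph2: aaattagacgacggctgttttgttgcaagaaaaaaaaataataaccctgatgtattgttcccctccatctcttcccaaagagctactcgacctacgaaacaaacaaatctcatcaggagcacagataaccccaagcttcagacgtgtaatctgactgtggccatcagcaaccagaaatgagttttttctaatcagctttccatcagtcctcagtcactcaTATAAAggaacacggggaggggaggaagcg
The Gad1 stretch held 1 E-box and 1 TATA motif, that of Slc32a1 2 E-boxes, that of Th 1 E-box and 1 cAMP response element, and that of Tph2 1 TATA motif, with no overlap between them. Over 32851 RefSeq starts, 66.2% held the E-box, 12.4% TATAAA and 1.55% TGACGTCA within the same length. A match is a run of letters and was not tested as a site.

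Levels are given as log2 signal, that is log2 of the quantile normalised signal plus 16, and differences are SOD1 minus WT on that scale. The number of arrays limits the precision. As a check of the labelled cell type, 10 of 11 measured motor neuron markers were above background on all 6 arrays, while Mnx1 was on 1. SOD1 replicate 3 stood apart from SOD1 replicates 1 and 2 in Xist, which averaged 5.71 on it and 12.83 and 12.91 on the others, against 5.76 to 7.07 in WT, so Xist level and genotype are partly confounded. Microglial markers moved with genotype too. Their summed signal, over 10 measured genes of 11, was 104166 to 176815 in SOD1 and 9564 to 41448 in WT, 4 passed the test as higher in SOD1, and 0 were at background on all arrays. The part of other cells in the differences below was not tested.

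The deposited values have no detection calls, so background was taken on each array as the 95th percentile of 27 Bacillus control probe sets, and lay at 7.21, 7.61 and 7.30 in SOD1 and 7.24, 7.35 and 7.23 in WT. This level is a low bar. Of 37 probe sets of genes restricted to other organs, 8 to 11 exceeded it on the SOD1 arrays and 12 to 14 on the WT arrays, and the 95th percentile of those 37 lay at 8.60 to 9.16 in SOD1 and 8.68 to 9.47 in WT, which is used below as a second, higher bar.

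Slc17a6 and Tph2 were far above background on most arrays, Slc32a1 and Slc6a5 less so, and Gad2, Slc17a7, Th and, on all but 1 array, Gad1 were near it. Of the 15 probe sets, 3 were above background on all 6 arrays, 9 on some and 3 on none, whereas 46.8% of all 45037 non-control probe sets were above it on all 6 and 12.9% on none. The 3 on all arrays read Slc17a6, Tph2 and Slc32a1. Against the higher bar, 1 probe set, that of Tph2, passed on all 6 arrays, 8 passed on none, and the other 6 passed on 1 to 5 arrays. The probe sets below background on all arrays were Gad1 1416562_at (5.04 to 6.34), Slc32a1 1447573_at (4.64 to 5.91) and Slc32a1 1447574_s_at (4.68 to 5.99).

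**Figure D1:**
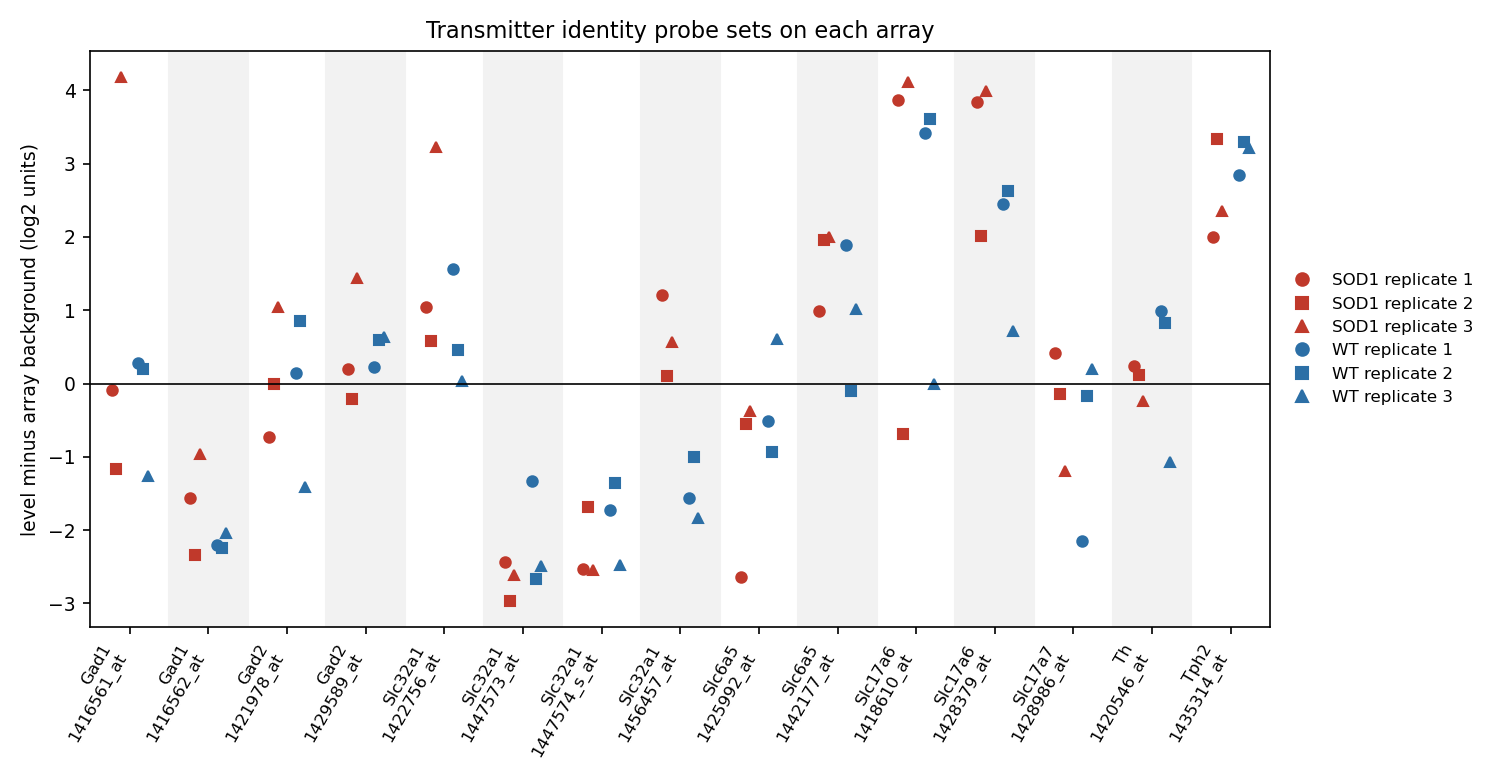
Level of each of the 15 probe sets minus the background of its array (log2 units), with SOD1 in red on the left and WT in blue on the right of each column, 1 symbol per array. Tph2, Slc17a6 1428379_at and Slc32a1 1422756_at sit above 0 on every array, and Gad1 1416561_at reaches 4.18 on SOD1 replicate 3 and at most 0.29 on the others.

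Gad1, which makes most of the GABA in many neurons, was high on a single array. Its probe set 1416561_at read 7.12, 6.45 and 11.48 in SOD1 replicates 1, 2 and 3 and 7.53, 7.56 and 5.97 in WT replicates 1, 2 and 3 (log2 signal). In deposited signal these were 124, 72.2 and 2758 in SOD1 and 175, 179 and 42.6 in WT. SOD1 replicate 3 was at 18.2 times the background of the array, the other 5 lay -1.26 to 0.29 from theirs on the log2 scale, and the groups overlapped. The difference was 1.33 ± 1.13 (SE, n = 3 each; limma, adjusted p = 0.624). Leaving out SOD1 replicate 3 gave -0.24, with a mean then below the filter on low signal.

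Gad2, the second GABA-making enzyme, bound to vesicle membranes, was close to background in both groups. Probe set 1429589_at read 7.42, 7.39 and 8.73 in SOD1 and 7.47, 7.95 and 7.86 in WT, with 5 arrays above background. The highest level was again that of SOD1 replicate 3, by 0.79, and the groups overlapped, with a difference of 0.09 ± 0.59 (limma, adjusted p = 0.961). Probe set 1421978_at, just below the filter, read 6.48, 7.60 and 8.34 in SOD1 and 7.39, 8.21 and 5.82 in WT, and was above background on 1 SOD1 and 2 WT arrays.

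Slc32a1, the vesicular transporter of GABA and glycine, gave a similar picture in the probe set that was above background throughout. Probe set 1422756_at read 8.26, 8.18 and 10.52 in SOD1 and 8.81, 7.82 and 7.26 in WT. SOD1 replicate 3 led by 1.71, WT replicate 3 was 0.03 above its background, and the groups overlapped. No array other than SOD1 replicate 3 passed the higher bar. The difference was 1.03 ± 0.69 (limma, adjusted p = 0.523), against 0.26 without SOD1 replicate 3.

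The remaining Slc32a1 probe set, 1456457_at, had another pattern. It read 8.42, 7.70 and 7.87 in SOD1 and 5.68, 6.36 and 5.39 in WT. All 3 SOD1 arrays were above background, by 0.10 to 1.21, all 3 WT arrays were below it, and the groups did not overlap, although no array passed the higher bar. Its mean of 6.90 was below the filter level of 7.38, so it was left out of the main test. Judged by the lower bar alone, with WT below it, the level was at least 1.65-fold higher in SOD1. This sets the SOD1 mean against the mean WT background, and the higher bar gives no such bound. In a fit with no filter it did not pass (limma, adjusted p = 0.247), where 0.107% of all 45037 did. Over all 45037 non-control probe sets, 8.58% were higher in SOD1 without overlap. Of the 15 described here 2 were, the other being Gad1 1416562_at, below background on every array, and 0 were lower without overlap, against 7.89% of all.

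Among the 5 Gad1, Gad2 and Slc32a1 probe sets above background on any array, 4 had their highest level on SOD1 replicate 3. Over all 12 transmitter identity probe sets above background anywhere it was 6, of Gad1, Gad2, Slc32a1 and Slc17a6, with more than 1 probe set each for Gad2 and Slc17a6. That array was the highest for 19.9% of the 27022 probe sets tested, a set kept by mean level instead. A probe set could enter the 12 through a high level on 1 array, so these counts support nothing about that array. A lead as large as that of Gad1 was seen on SOD1 replicate 3 for 4 of the 27022, on WT replicate 2 for 3 and on each of the other arrays for 0. Besides Gad1 the genes on SOD1 replicate 3 were Npy, neuropeptide Y, and Usp18 and Rsad2, both induced by interferon, genes that were singled out after their values were seen. Npy read 8.95, 8.24 and 13.89 in SOD1 and 8.01, 7.99 and 8.31 in WT. Vip, another neuropeptide gene of interneurons, read 9.32, 8.65 and 11.51 in SOD1 and 8.64, 8.07 and 6.90 in WT.

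Most other interneuron markers were not highest on that array. Of the 8 measured, the calcium-binding protein and peptide genes Pvalb, Calb1, Calb2, Sst, Npy, Cck, Vip and Penk, 2 were highest on SOD1 replicate 3, namely Npy and Vip. Sst, somatostatin, read 5.04, 7.51 and 6.62 in SOD1 and 8.59, 9.17 and 7.71 in WT. All 3 SOD1 arrays were below background, and no array of either group passed the higher bar. With the WT mean set against the SOD1 background, Sst was at least 2.17-fold lower in SOD1 (limma, adjusted p = 0.248). That bound rests on the lower bar alone. The summed signal of the 8 was 17510, 10173 and 31175 in SOD1 and 22967, 16366 and 15763 in WT. The summed microglial signal on SOD1 replicate 3 was 104166, the lowest of the 3 SOD1 arrays, and its summed endothelial and mural signal was 5559, the lowest of all 6, over 10 genes of which 0 were at background on all arrays. Their part in the Gad1 and Slc32a1 levels was not tested.

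**Figure D2:**
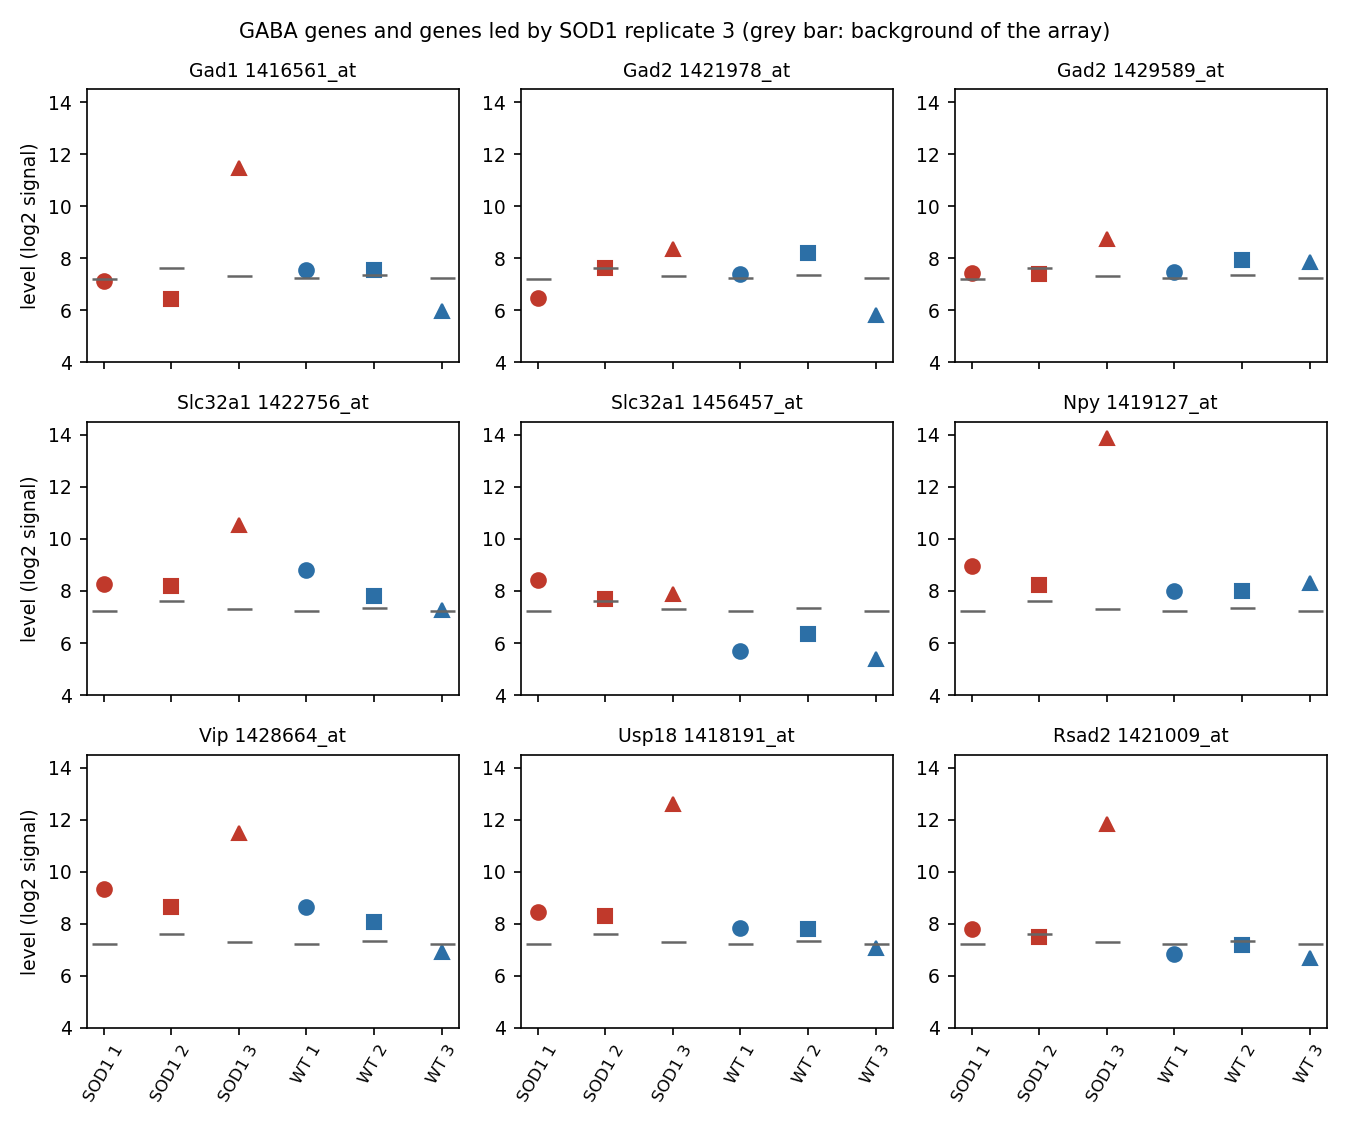
Level (log2 signal, vertical axis) of the Gad1, Gad2, Slc32a1, Npy, Vip, Usp18 and Rsad2 probe sets on the 3 SOD1 (red) and 3 WT (blue) arrays, with grey bars for the background of each array. SOD1 replicate 3 stands above the other arrays for Gad1 (11.48), Slc32a1 1422756_at (10.52) and Npy (13.89), whereas Slc32a1 1456457_at is higher on all 3 SOD1 arrays.

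Slc6a5, the glycine transporter of inhibitory terminals, was above background on 5 of 6 arrays in 1 probe set. Probe set 1442177_at read 8.20, 9.57 and 9.30 in SOD1 and 9.13, 7.25 and 8.24 in WT. SOD1 replicates 2 and 3 were the highest and passed the higher bar, WT replicate 2 was the lowest, and the groups overlapped. The difference was 0.82 ± 0.58 (limma, adjusted p = 0.553), against 0.34 without WT replicate 2 and 1.28 without WT replicate 1. Probe set 1425992_at read 4.57, 7.05 and 6.92 in SOD1 and 6.73, 6.42 and 7.83 in WT, with WT replicate 3 the only array above background. The 2 probe sets thus ranked the arrays differently, and the second was below the filter.

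Slc17a6, the vesicular glutamate transporter of many brainstem neurons, was far above background on most arrays and varied widely between them. Probe set 1428379_at read 11.05, 9.61 and 11.29 in SOD1 and 9.69, 9.98 and 7.95 in WT, all above background. SOD1 replicates 1 and 3 were the highest and WT replicate 3 was the lowest, while SOD1 replicate 2 fell within the WT range. The difference was 1.44 ± 0.58, a 2.72-fold higher level in SOD1 that did not pass (limma, adjusted p = 0.286). Without WT replicate 3 it was 0.81.

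The other Slc17a6 probe set, 1418610_at, split the arrays across genotypes. It read 11.09, 6.92 and 11.41 in SOD1 and 10.66, 10.97 and 7.23 in WT. The 4 high arrays were 3.41 to 4.12 above background, SOD1 replicate 2 lay -0.69 from it, and WT replicate 3 was at it. The difference of 0.19 ± 1.17 (limma, adjusted p = 0.958) turned to -0.45, -0.61 and -0.998 without SOD1 replicate 1, SOD1 replicate 3 or WT replicate 3, and to 1.64 without SOD1 replicate 2. SOD1 replicate 2 was thus low in this probe set and 2.01 above background in the other.

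Slc17a7, the vesicular glutamate transporter best known from cortex and cerebellum, was near background. Its probe set read 7.63, 7.47 and 6.10 in SOD1 and 5.10, 7.18 and 7.43 in WT. SOD1 replicate 1 and WT replicate 3 were above background, by 0.42 and 0.20, and the groups overlapped. It was below the filter and had no main test.

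Th, which makes the dopamine and noradrenaline precursor, was also near background. It read 7.46, 7.73 and 7.06 in SOD1 and 8.23, 8.18 and 6.16 in WT, above background on 2 arrays of each group by at most 0.99 and never above the higher bar. WT replicates 1 and 2 were the highest and WT replicate 3 was the lowest, so the WT arrays enclosed all SOD1 arrays. The difference was -0.11 ± 0.72 (limma, adjusted p = 0.959). Of the other catecholamine markers, Dbh, which makes noradrenaline from dopamine, read 7.42, 6.97 and 8.10 in SOD1 and 8.12, 7.87 and 7.56 in WT. Slc6a2, the noradrenaline transporter, was above background on all 6 arrays, at 8.03 to 8.36 in SOD1 and 7.98 to 8.39 in WT. It was never above the higher bar, and its other probe sets were above background on 3, 2 and 1 arrays. Slc6a3, the dopamine transporter, was above it on 3 arrays and Slc18a2, the vesicular monoamine transporter, on 0. With Ddc, described below, 2 of the 6 catecholamine markers were above background on all 6 arrays.

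Tph2 was the 1 member above both bars on every array. It read 9.21, 10.94 and 9.65 in SOD1 and 10.09, 10.65 and 10.45 in WT, 4.004 to 10.1 times the background of the array. SOD1 replicate 2 was the highest and SOD1 replicates 1 and 3 were the lowest, so the SOD1 arrays enclosed the WT arrays. The group means were 9.94 ± 0.90 in SOD1 and 10.39 ± 0.28 in WT (SD, n = 3), with a difference of -0.46 ± 0.44 (limma, adjusted p = 0.674). It was -0.09 without SOD1 replicate 1 and -0.96 without SOD1 replicate 2.

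The other serotonin markers gave an uneven picture beside Tph2. Ddc, the decarboxylase that serotonin and catecholamine neurons share, was at 9.77 to 10.57 in SOD1 and 9.07 to 10.17 in WT, above background throughout. Slc6a4, the serotonin transporter, read 8.15, 7.94 and 7.74 in SOD1 and 7.24, 7.19 and 5.45 in WT. It was above background on all 3 SOD1 arrays and on 0 WT arrays, without overlap, and never above the higher bar. Over all 45037 non-control probe sets, 8.58% were higher in SOD1 without overlap. Slc6a4 was below the filter, and in a fit with no filter it did not pass (limma, adjusted p = 0.539). With Slc18a2 below background on all arrays and Fev not analysed here, 2 of 4 measured serotonin markers were above background on all 6 arrays. The summed signal of the 4 was 1710, 3648 and 2509 in SOD1 and 2434, 2736 and 1946 in WT.

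**Figure D3:**
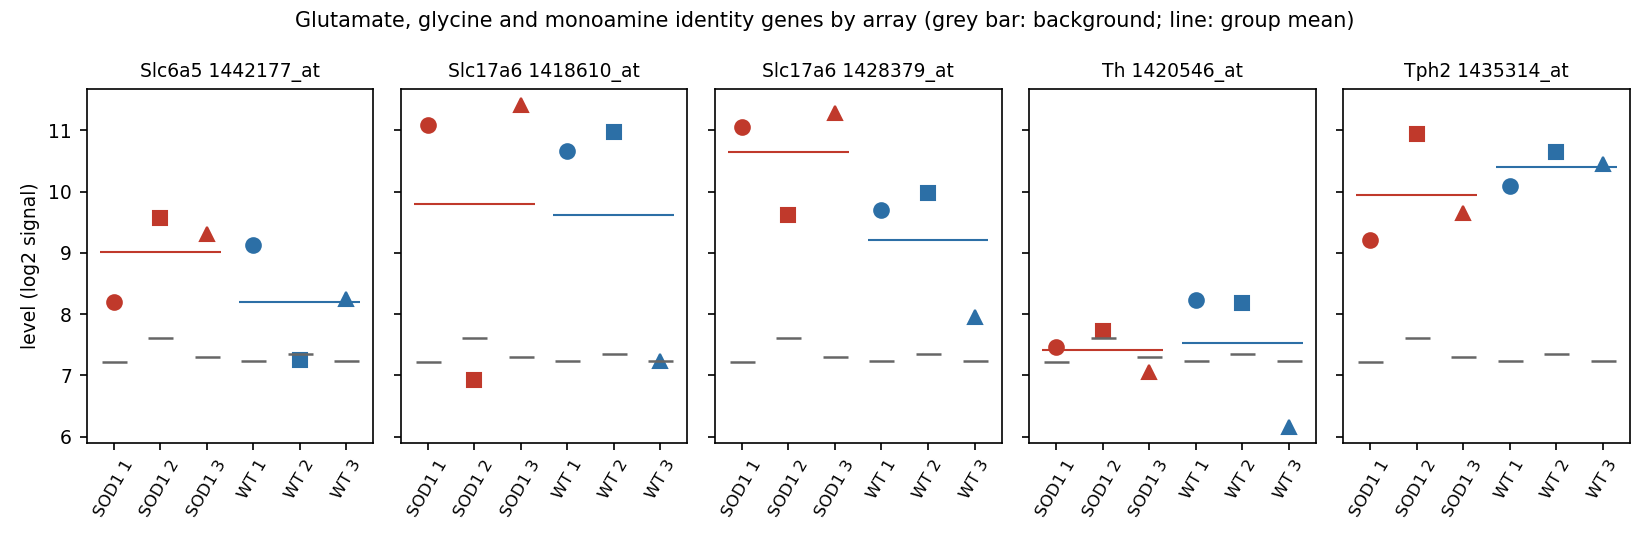
Level (log2 signal) of Slc17a6, Slc6a5, Th and Tph2 probe sets on the SOD1 (red) and WT (blue) arrays, with lines for group means and grey bars for background. The 2 Slc17a6 probe sets share high SOD1 replicates 1 and 3 and a low WT replicate 3 but differ on SOD1 replicate 2, at 6.92 and 9.61.

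SOD1 was compared with WT in a limma fit over all 27022 probe sets above the filter, and 8 of the 15 described here were among them. None of these 8 passed (adjusted p = 0.286 to 0.961), where 0.185% of all tested did, 0.0629% as higher and 0.122% as lower in SOD1. Of these 8, 0 were without overlap between the groups, where 10.5% of all tested were higher and 9.81% lower in that way. At an unadjusted p under 0.05 it was 1 of 8, Slc17a6 1428379_at, where 14.7% of all passed, and with no filter 2 of 15, where 11.2% did. The estimate was positive for 6 and negative for 2, with a median of 0.50 beside -0.01 over all tested. Gad1 passed the filter through the level of SOD1 replicate 3 alone, so these counts support nothing about direction. A missed threshold does not show that levels were alike, since the standard errors ran from 0.44 for Tph2 to 1.17 for Slc17a6 1418610_at.

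**Figure D4:**
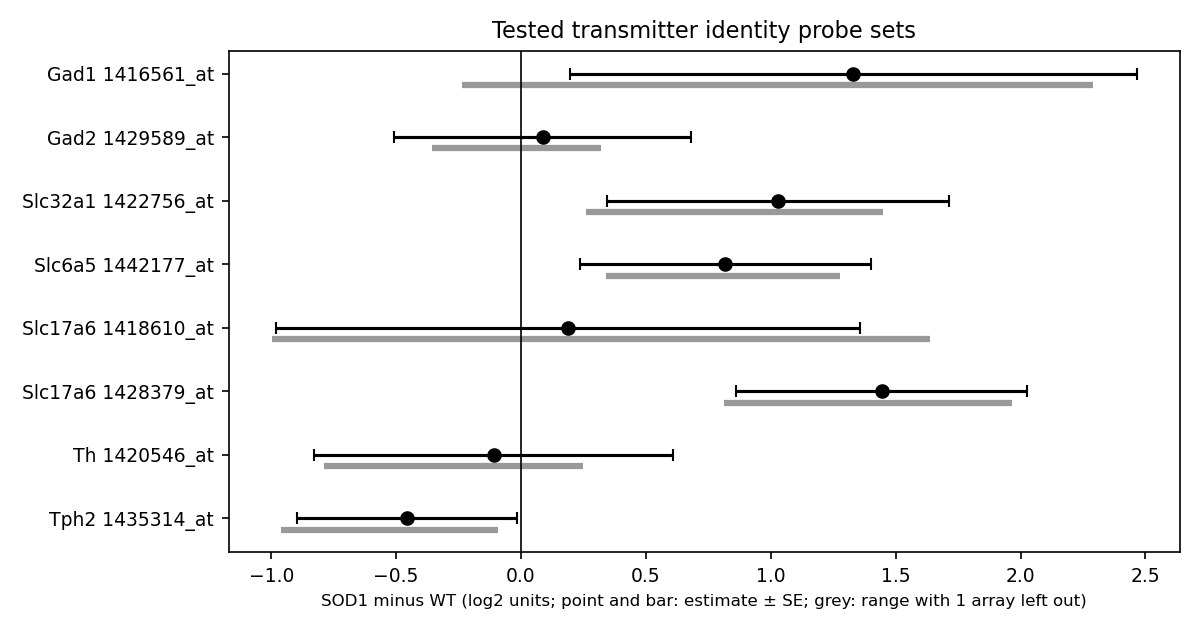
Difference SOD1 minus WT (log2 units) for the 8 tested probe sets, with the estimate ± SE (black, n = 3 each) and the range when each array is left out in turn (grey). The ranges of Gad1, Gad2, Slc17a6 1418610_at and Th cross 0, and that of Slc17a6 1428379_at runs from 0.81 to 1.97.

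Genes that handle GABA and glycine after release were mostly far above background. Of 13 listed, 11 were measured and 9 tested, with 0 past the threshold and a median difference of 0.00. At an unadjusted p under 0.05 there were 3, where 14.7% of all tested passed. Slc6a13, a GABA transporter known from meninges and vessels, read 8.82, 4.76 and 8.66 in SOD1 and 10.94, 10.12 and 9.26 in WT (limma, adjusted p = 0.229). It was lower in SOD1 without overlap, as were 9.81% of all tested probe sets. SOD1 replicate 2 was far below background, so no exact difference is given. Endothelial and mural markers had a lower summed signal in SOD1, at 5559 to 19458, against 28478 to 68303 in WT. Of 10 such markers measured, 9 were tested, 9 had a negative estimate, 1 passed as lower and 0 were below background on all arrays. Their part in the Slc6a13 values was not tested. Slc6a9, the glial glycine transporter, was at 11.56 to 11.66 in SOD1 and 11.91 to 12.23 in WT. The glycine enzyme gene Shmt2 differed by -1.11 ± 0.28 and Dld, a subunit of the glycine cleavage system and of other dehydrogenases, by 0.67 ± 0.23. Abat, which breaks GABA down, was at 13.31 to 13.49 in SOD1 and 13.00 to 13.26 in WT (limma, adjusted p = 0.543). A far dimmer Abat probe set, below the filter, went the other way, at 5.90, 6.47 and 4.65 in SOD1 and 7.29, 7.79 and 6.92 in WT. Its groups did not overlap, and 7.89% of all non-control probe sets were lower in that way.

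Genes that handle glutamate were tested for 12 of 14 listed, again with 0 past the threshold and a median of 0.04. At an unadjusted p under 0.05 there were 3, where 14.7% of all tested passed. Got2, mitochondrial aspartate aminotransferase, differed by -0.44 ± 0.12 and its cytosolic partner Got1 by -0.57 ± 0.25. Slc1a2, the main glutamate transporter of astrocytes, was at 15.11 to 15.45 in SOD1 and 14.85 to 14.95 in WT, a difference of 0.39 ± 0.13 (limma, adjusted p = 0.216). Slc1a1, a neuronal glutamate transporter, differed by -0.34 ± 0.17. Slc1a2 is itself an astrocyte marker, and 2 of the 8 astrocyte markers passed as higher in SOD1, with 0 at background on all arrays and a summed signal of 239658 to 244984 in SOD1 and 200839 to 207668 in WT. The dimmer Slc1a2 probe sets that were tested differed by 0.78 and -0.37. The part of astrocytes was not tested.

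Monoamine genes beyond Th and Tph2 were measured for 16 of 17 listed, of which 11 were tested, with 0 past the threshold, 0 at an unadjusted p under 0.05 and a median of 0.05. Gch1 and Pts, which make the tetrahydrobiopterin that Th and Tph2 need, differed by 0.90 ± 0.44 and 0.41 ± 0.21, each without overlap between the groups. Of all tested probe sets, 10.5% were higher in SOD1 in that way, and a second Gch1 probe set differed by -0.24. Maoa, which degrades serotonin and noradrenaline, differed by 0.47 ± 0.26.

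The transmitter of the motor neurons themselves is acetylcholine, and all 4 cholinergic genes were above background on all 6 arrays. Their median difference was -0.70, with 0 of 4 past the threshold and 2 at an unadjusted p under 0.05, where 14.7% of all tested were. Slc18a3, the vesicular acetylcholine transporter, read 12.75, 12.06 and 12.50 in SOD1 and 13.06, 13.66 and 13.58 in WT. Ache, which breaks acetylcholine down, read 14.81, 13.67 and 14.07 in SOD1 and 15.00, 15.30 and 15.45 in WT. Both were lower on every SOD1 array than on any WT array (limma, adjusted p = 0.131 for Slc18a3 and 0.117 for Ache). So were 9.81% of all tested probe sets. Chat differed by -0.40 ± 0.43 and Slc5a7 by 0.72 ± 0.44.

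Few of the transcription factors that set inhibitory, excitatory or monoamine fate were above background on every array. Of 24 listed, 20 were measured, 3 were above background on all 6 arrays, and 5 were below it on all, namely Dlx1, En1, Gata3, Lhx1 and Ptf1a. Of the 6 tested, 0 passed, 0 had an unadjusted p under 0.05, and the median was -0.39. Gata2, a factor of some inhibitory neurons, read 8.83, 9.02 and 8.04 in SOD1 and 9.37, 9.24 and 9.05 in WT, a difference of -0.59 ± 0.43 (limma, adjusted p = 0.558). The groups did not overlap there, where 9.81% of all tested probe sets were lower in that way. In a second tested Gata2 probe set, with a difference of -1.33, they overlapped. Tal1, which acts with Gata2, differed by -0.72 ± 0.80. Nr4a2, a factor of dopamine neurons, read 9.56, 5.42 and 9.73 in SOD1 and 10.27, 9.84 and 7.45 in WT, low on SOD1 replicate 2 and WT replicate 3 like Slc17a6 1418610_at, and its other tested probe sets differed by -0.81 to 0.94. Genes of vesicles shared by all transmitters were tested for 7 of 7, with 0 past the threshold and a median of -0.09. At an unadjusted p under 0.05 there was 1, where 14.7% of all tested passed. Atp6v0a1, a subunit of the proton pump that fills vesicles, differed by -0.97 ± 0.23 (limma, adjusted p = 0.117), with dimmer probe sets at -0.71 to 0.55. Slc6a17, a vesicular transporter of neutral amino acids, differed by -0.49 ± 0.26 and Syp, a vesicle membrane protein, by -0.21 ± 0.21.

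**Figure D5:**
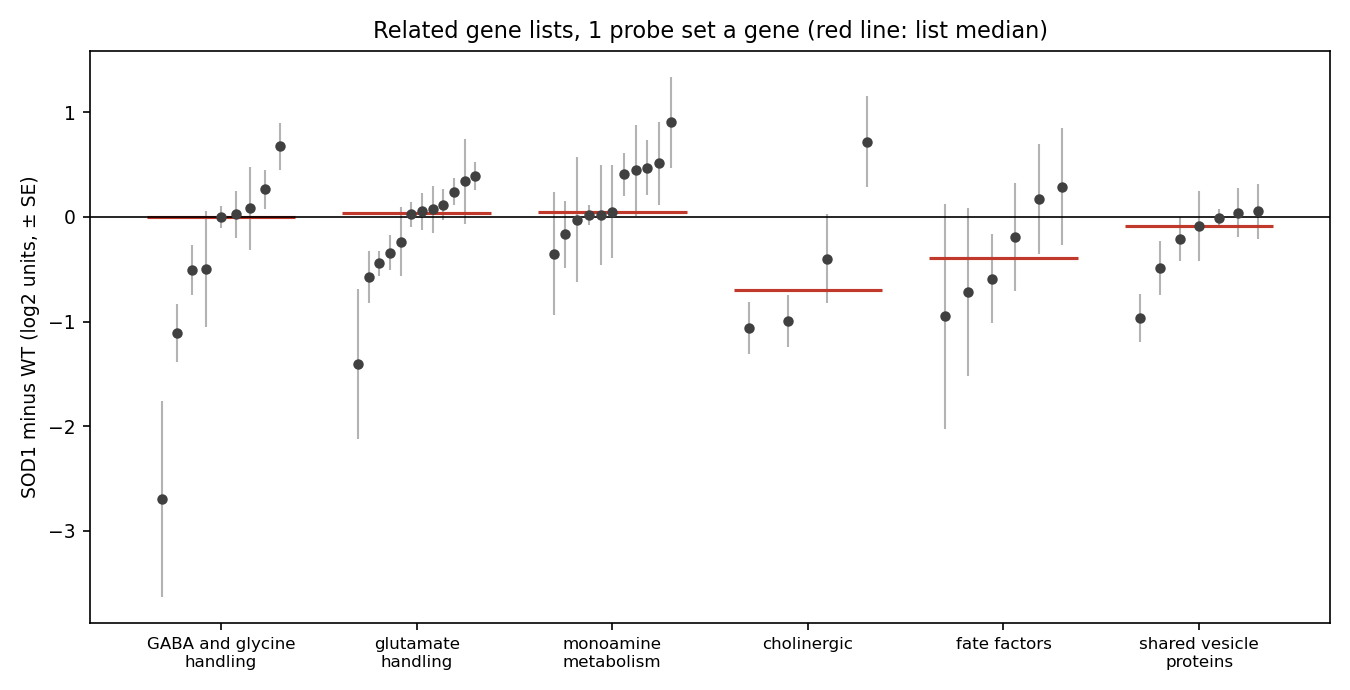
Difference SOD1 minus WT (log2 units, ± SE) for the tested genes of 6 related lists, 1 probe set a gene, with the list median as a red line. The cholinergic median lies at -0.70, the fate factor median at -0.39 and the other 4 medians between -0.09 and 0.05.

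For the members above background on all 6 arrays, the genes with the most similar profile over the 6 arrays were found by the root mean square difference of mean-centred log2 levels among 13116 genes. For Slc32a1 1422756_at they were Ctla2a (0.26), Polh (0.27) and Rtp4 (0.30), and for Slc17a6 1428379_at they were Gm26910 (0.25), Ifih1 (0.28) and Scd3 (0.31). Tph2 was closest to 4430402I18Rik (0.15), Nkiras2 (0.19) and Lrrc75b (0.21). These genes were picked for the likeness, so the arrays on which they are high follow from the choice.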

How the data were processed

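The 3 SOD1 and 3 WT samples went through T7 amplification in 2 rounds, per the labels' protocols, which favours the 3′ end of transcripts, so probe sets far from it can read low. The Actb control read 4.20 to 5.14 higher at its 3′ than at its 5′ end (log2), and that of Gapdh 3.28 to 4.68. WT replicate 1 had the largest gap in both. The part of this in the levels of the transmitter identity probe sets was not tested. The authors deposited 1 linear intensity for each probe set on an array. All 6 arrays shared a 2% trimmed mean of 2500.02, a sign of scaling. The algorithm is not given in the sources used here, and there are no detection calls. Of 45101 probe sets, 64 controls were left out of the tests. Probe sets were named by the platform annotation, and all 15 symbols matched RefSeq by Entrez identifier. Arrays were quantile normalised, 16 was added, log2 taken, and probe sets with a mean over the 40th percentile kept (27022). The 2 genotypes were contrasted by limma (version 3.58.1, R 4.3.3; lmFit, eBayes with trend), two-sided, with Benjamini-Hochberg adjustment over all kept probe sets and a threshold of 0.05. The fit was tested on simulated data. The labels give no pairing beyond the replicate number, and the main fit used none. Deviations from the group mean correlated at 0.03, -0.04 and -0.01 for equal numbers. With 3 arrays a group this check cannot exclude a batch shared by equal numbers.

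Named were all members above background on any array and, for each related list, up to 6 genes with the smallest p, 1 probe set a gene (the highest mean). The 27 Bacillus controls, the members, lists and alternatives were chosen with earlier results of these data known. The alternatives were other scalings, pseudocounts, filters, variance priors and weights, a replicate block, Xist as a covariate, arrays left out and other background levels. Figures were drawn with matplotlib 3.10.9.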

Additional observations from a re-analysis of the deposited data

How the results depend on the processing

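Of the 8 tested transmitter identity probe sets, 0 passed in each of the 18 other settings. The sign was kept wherever it was tested for Slc17a6 1428379_at, Slc32a1 1422756_at, Slc6a5 1442177_at and Tph2. With 1 array left out, Gad2 1429589_at ran from -0.36 to 0.32, Slc17a6 1418610_at from -0.998 to 1.64 and Th from -0.79 to 0.069 where they passed the filter, and Slc17a6 1418610_at was -0.17 with array weights. Gad1 and Slc32a1 1422756_at were at 3.77 (limma, adjusted p = 0.130) and 2.17 (0.216) with Xist as a covariate. Xist was high only on SOD1 replicates 1 and 2, so the genotype term of that fit rests mainly on SOD1 replicate 3 against WT. Both values thus carry the lead of that array and are no estimate for the SOD1 group. The cause of the other moves was not tested. The count of all probe sets called, 50, was 87 with a pseudocount of 64, 106 with a filter at the 60th percentile, 0 with no variance trend (3247 at an unadjusted p under 0.05), 100 with array weights, 76 with the replicate block and 25 without probe sets of shared sequence. With 1 array left out it ran from 0 (without WT replicate 2, 2659 at an unadjusted p under 0.05) to 79 (without WT replicate 3), with 6, 9 and 29 when SOD1 replicate 2, WT replicate 1 or SOD1 replicate 3 was left out. The replicate block changed no call among the transmitter identity genes. The 3 probe sets above background throughout became 2 with the highest Bacillus control and 1 with genes of other organs as the bar. Slc32a1 1422756_at fell out with the highest Bacillus control, at 7.26 against 7.38 on WT replicate 3. With 1 array left out there were 3 to 5, the 5 being without SOD1 replicate 2. Levels near background limit what 3 arrays a group can show for Gad1, Gad2, Slc17a7 and Th.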
